A study of Homo sapiens with 10 samples.

Results

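Sarcoplasmic reticulum calcium cycling is the set of channels, pumps, buffers and scaffolds that release calcium from the internal store of a cardiomyocyte at each beat and return it afterwards. The genes described here were chosen by name, as rows of the deposited count table, with gene identifiers paired to symbols through GENCODE. They were RYR2, JPH2, TRDN, CASQ2, HRC, ATP2A2, PLN, SLC8A1, S100A1 and CAMK2D. All 10 were found among the 78932 gene identifiers of the table, and all 10 passed the filter on low counts that left 21033 genes for testing. The study transfected beating cardiomyocytes, made from the established human embryonic stem cell line H1, with a GapmeR. GapmeRs are short antisense oligonucleotides whose pairing with a transcript recruits RNase H, which cleaves it. Cells of the control group received 50 nM of a control GapmeR on day 9 of differentiation, and cells of the knockdown group received 50 nM of GapmeRs directed at the RNA named CLIPPER. Both groups were transfected with a lipid reagent, were collected 48 hours later and gave 5 bulk libraries of total RNA each. How many GapmeR sequences were aimed at CLIPPER is not stated in the labels, and the targeted RNA itself was not analysed here.

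In a cardiomyocyte, the electrical signal opens calcium channels of the surface membrane, and the calcium that enters opens the ryanodine receptor RYR2 in the reticulum membrane. Junctophilin 2, encoded by JPH2, holds the surface membrane and the reticulum close together, while triadin, encoded by TRDN, anchors the calcium-binding protein calsequestrin 2, encoded by CASQ2, to the receptor from the inside. The pump SERCA2, encoded by ATP2A2, returns calcium to the store under the brake of phospholamban, encoded by PLN, and the sodium-calcium exchanger NCX1, encoded by SLC8A1, carries the rest out of the cell.

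Each library held between 32.9 and 45.1 gene counts in units of 1e6. Levels are given as normalised CPM, which are counts per 1e6 counts after scaling with the trimmed mean of M-values (TMM). All 15 listed cardiomyocyte markers were detected and tested. Their summed level was 44234 to 67986 CPM in control libraries and 16772 to 29541 CPM in knockdown libraries. Of these markers 11 were lower in the knockdown, 0 were higher and 4 did not pass, with a median log2 fold change of -0.97. Marker calls used an adjusted p below 0.05, at which 39.6% of all tested genes were lower and 40.1% higher. The summed level went from 1517 to 2932 CPM in control to 825 to 1290 CPM in knockdown libraries for 8 smooth muscle markers, of which 0 rose and 7 fell. It went from 1268 to 1388 CPM to 957 to 1124 CPM for 10 stromal markers, of which 9 were tested, 2 rose and 5 fell. It was 205 to 618 CPM and 284 to 405 CPM for 11 skeletal muscle markers. Of the 6 that could be tested, MYOG, CKM, TNNT3 and TNNI2 rose, ACTA1 fell and CACNA1S did not pass, with a median log2 fold change of 1.01, while MYOD1, MYF5, MYF6, MYH1 and MYH2 had too few counts. It was 30.7 to 52.2 CPM and 9.17 to 18.2 CPM for 8 endothelial markers, of which 5 were tested and 3 fell, and PECAM1, CDH5 and ERG had too few counts. The 6 epicardial markers summed to 35.6 to 39.3 CPM and 118 to 195 CPM. KRT19, which rose, held most of that sum, while the defining WT1 and TBX18 were lower in the knockdown. The 8 pluripotency markers summed to 0.967 to 1.96 CPM and 4.35 to 7.29 CPM, with 3 of 4 tested markers higher and POU5F1, NANOG and SOX2 too low to be tested. The 8 endoderm markers summed to 91.4 to 114.6 CPM and 54.6 to 71.1 CPM, with 2 of 4 tested markers higher and 1 lower. The 8 neural markers summed to 585 to 1205 CPM and 695 to 911 CPM, with 1 of 4 tested markers higher and 2 lower. In these bulk cultures, fewer cardiomyocytes and less RNA per cardiomyocyte cannot be told apart, and the part of the marker changes in the results was not tested.

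Of the 10 calcium cycling genes, 8 were lower and 2 were higher in the knockdown at an adjusted p below 0.05 in edgeR's quasi-likelihood test. Over all tested genes the same threshold called 79.7% changed, 39.6% lower and 40.1% higher. The genes that fell were RYR2, SLC8A1, JPH2, TRDN, CASQ2, CAMK2D, PLN and ATP2A2, and the genes that rose were HRC and S100A1. The median log2 fold change of the 10 genes was -1.25, and that of all tested genes was 0.0056. The latter median and the even split of calls depend on TMM, which sets changes relative to the bulk of genes. With upper-quartile scaling the median of all tested genes was 0.20, with 45.5% called higher and 34.6% lower. RYR2, SLC8A1, JPH2 and TRDN fell by more than 4-fold, a size of fall reached by 7.58% of all tested genes. In 9 of the 10 genes no knockdown library overlapped with a control library, with PLN as the exception, and 67.5% of all tested genes showed such a separation.

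**Figure D1:**
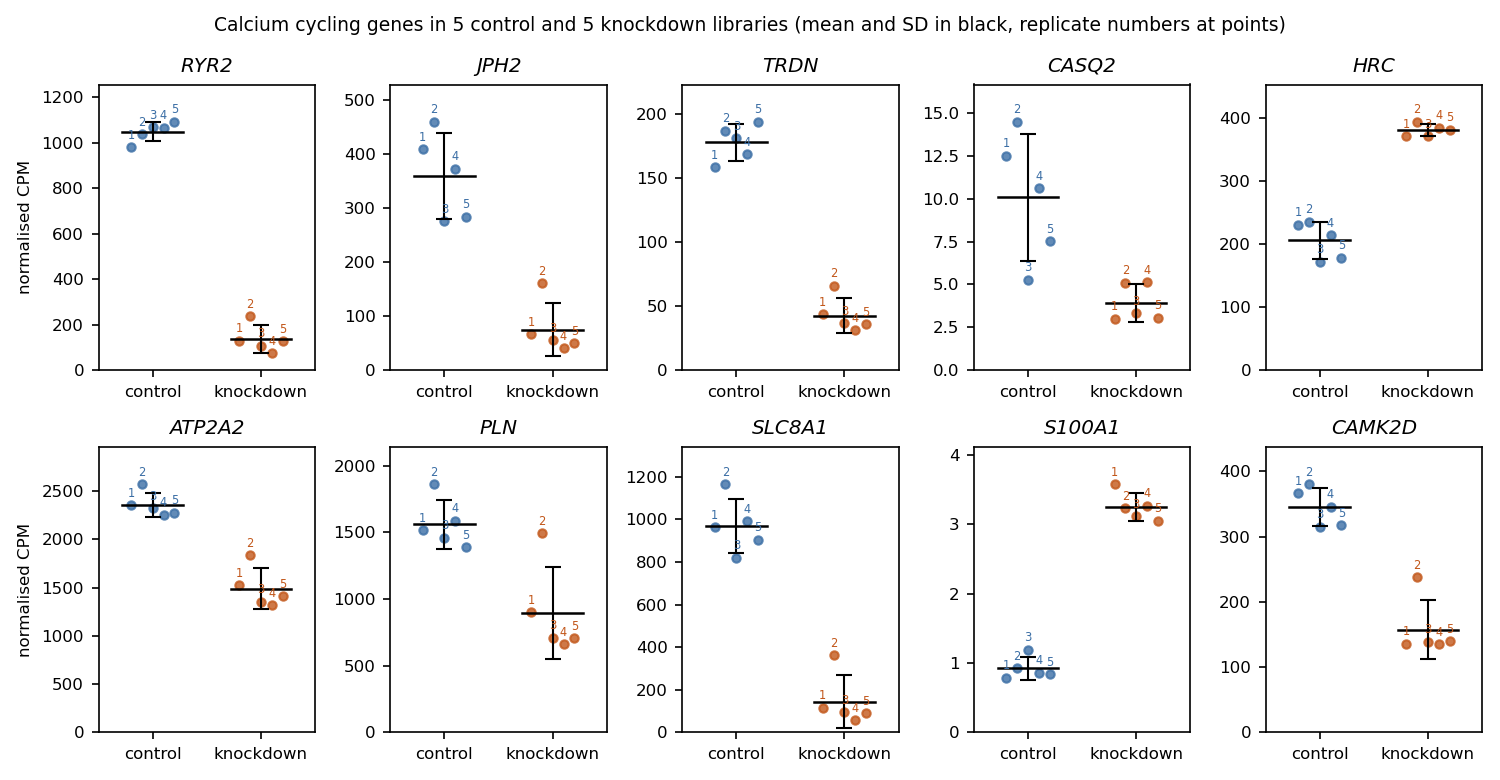
Normalised CPM (vertical axis, linear, from 0) of each calcium cycling gene in the 5 control libraries (blue) and the 5 knockdown libraries (orange), with replicate numbers at the points and the mean and SD in black. RYR2 lies at 979 to 1091 CPM in control and at 73.2 to 238 CPM in knockdown libraries, while HRC and S100A1 are the only panels in which the knockdown is higher.

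Promoter windows are shown for the release channel gene, which fell (RYR2), for the gene with the highest level per length, which fell (PLN), and for the more abundant gene that rose (HRC), because these genes moved together or apart in the same libraries. The windows come from RefSeq on GRCh38.p14, run from 250 bases before to 50 bases after an annotated start and are written 5′ to 3′ on the strand of the gene. All 10 genes had a window in this set, 13 windows in all, as ATP2A2 and SLC8A1 have several starts. Capitals mark matches on either strand to the E-box letters CANNTG, the GATA letters AGATAA (also with T as the first or G as the last letter) and the M-CAT letters CATTCC. No matches overlap in these windows.
RYR2, chr1:237041934-237042233, plus strand: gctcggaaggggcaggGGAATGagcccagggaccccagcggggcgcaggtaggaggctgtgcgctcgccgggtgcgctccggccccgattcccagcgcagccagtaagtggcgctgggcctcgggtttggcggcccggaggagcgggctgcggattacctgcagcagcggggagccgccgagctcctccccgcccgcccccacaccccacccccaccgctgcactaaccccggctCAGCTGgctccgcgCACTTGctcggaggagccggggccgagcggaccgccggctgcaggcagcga
PLN, chr6:118548046-118548345, plus strand: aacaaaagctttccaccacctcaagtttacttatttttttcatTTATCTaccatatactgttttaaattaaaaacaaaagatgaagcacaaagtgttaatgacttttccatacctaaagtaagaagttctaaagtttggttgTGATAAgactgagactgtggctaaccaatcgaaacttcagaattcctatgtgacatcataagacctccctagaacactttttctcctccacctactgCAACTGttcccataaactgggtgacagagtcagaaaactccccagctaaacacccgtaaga
HRC, chr19:49155347-49155646, minus strand: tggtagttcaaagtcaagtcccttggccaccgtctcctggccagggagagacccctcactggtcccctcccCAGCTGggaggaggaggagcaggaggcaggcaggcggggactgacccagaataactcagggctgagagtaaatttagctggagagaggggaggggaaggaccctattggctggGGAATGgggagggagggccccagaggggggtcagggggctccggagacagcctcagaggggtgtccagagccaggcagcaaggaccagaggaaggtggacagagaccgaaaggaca
E-box letters were found in 11 of the 13 windows and in 68.7% of the 35114 windows of all genes. GATA letters were found in 3 of 13 windows, 1 each of PLN, ATP2A2 and SLC8A1, and in 24.97% of all windows. M-CAT letters were present in the RYR2 and HRC windows and in 14.0% of all windows, so that a gene that fell and a gene that rose shared them. TATAAA was found in 1 of the SLC8A1 windows and in 11.5% of all windows, and the CArG and MEF2 motifs, present in 1.29% and 0.572% of all windows, were found in none of the 13. The windows differed in base composition, with 75.3% G and C for RYR2, 63.0% for HRC and 36.7% for PLN, against a median of 58.7% over all windows.

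RYR2 (ENSG00000198626, chromosome 1, 237042184 to 237833988 on the plus strand, GRCh38) encodes the channel that releases calcium from the store. Its level was 979, 1038, 1069, 1065 and 1091 CPM in control replicates 1 to 5, and 129.8, 238, 107, 73.2 and 127 CPM in knockdown replicates 1 to 5. Every knockdown library lay far below every control library, and the highest knockdown value was that of replicate 2. The log2 fold change was -2.96 ± 0.26 (SE), or 7.76-fold lower, with an adjusted p of 6.9e-07.

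JPH2 (ENSG00000149596, chromosome 20, 44106590 to 44187188 on the minus strand) encodes the junctional tether. Its level was 409, 460.2, 275.5, 373 and 284.6 CPM in control libraries, in the order of their replicate numbers, and 67.2, 160.6, 55.6, 40.9 and 50.1 CPM in knockdown libraries. The groups did not overlap, although control replicates 3 and 5 lay below the other controls and knockdown replicate 2 above the other knockdown libraries. JPH2 fell 4.81-fold (log2 fold change -2.27 ± 0.34, SE, adjusted p = 5.8e-05). TRDN (ENSG00000186439, chromosome 6, 123216339 to 123637189 on the minus strand) encodes triadin, the membrane anchor of calsequestrin at the release channel. It was at 158.5, 187, 181, 168.7 and 194 CPM in control libraries and at 43.6, 65.9, 36.5, 31.0 and 35.8 CPM in knockdown libraries. The 5 control values were close together and the groups did not overlap. TRDN fell 4.17-fold (log2 fold change -2.06 ± 0.18, SE, adjusted p = 7e-07).

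The genes of the calcium-binding proteins inside the store moved in opposite directions. CASQ2 (ENSG00000118729, chromosome 1, 115700021 to 115768884 on the minus strand) encodes the main calcium buffer of the cardiac reticulum. Its level was 12.5, 14.5, 5.27, 10.6 and 7.53 CPM in control libraries and 3.00, 5.10, 3.34, 5.11 and 3.05 CPM in knockdown libraries. The groups were separated only narrowly, as control replicate 3 lay just above knockdown replicates 2 and 4. CASQ2 fell by 1.36 ± 0.27 (SE) on the log2 scale, or 2.57-fold, with an adjusted p of 5e-04. It was covered by 97 to 624 counts per library.

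HRC (ENSG00000130528, chromosome 19, 49151198 to 49155396 on the minus strand) encodes a histidine-rich calcium-binding protein of the reticulum lumen that binds triadin and SERCA2. Its level was 231, 235.5, 172.5, 214.6 and 178 CPM in control libraries and 371, 394, 371.6, 385 and 381.6 CPM in knockdown libraries. All knockdown libraries lay above all controls. The spread among knockdown libraries (coefficient of variation 2.57%) was smaller than among controls (14.2%), where replicates 3 and 5 were again the lowest. HRC rose 1.85-fold (log2 fold change 0.88 ± 0.11, SE, adjusted p = 8.2e-06).

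ATP2A2 and PLN, the pump and its inhibitor, both fell, by less than the other 6 falling genes. ATP2A2 (ENSG00000174437, chromosome 12, 110280756 to 110351093 on the plus strand) was at 2359, 2575, 2323, 2257 and 2279 CPM in control libraries and at 1528, 1838, 1355, 1323 and 1415 CPM in knockdown libraries. The groups did not overlap. The log2 fold change was -0.66 ± 0.12 (SE), or 1.58-fold lower, with an adjusted p of 0.00028.

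PLN (ENSG00000198523, chromosome 6, 118548296 to 118561716 on the plus strand) was at 1514, 1862, 1459, 1586 and 1386 CPM in control libraries and at 899, 1494, 710.4, 660.5 and 707 CPM in knockdown libraries. Knockdown replicate 2 lay within the range of the controls, while the other knockdown libraries lay below all of them. PLN fell 1.75-fold (log2 fold change -0.80 ± 0.215, SE, adjusted p = 0.0042). Of the other small inhibitors and activators of the pump, SLN, STRIT1 and MRLN were nearly silent. ERLN and ARLN, also listed, were not found under these symbols, so their levels are not known here. SLN, sarcolipin, had 40 counts over the 5 control and 46 over the 5 knockdown libraries, and STRIT1, which encodes the activator DWORF, had 33 and 74. MRLN, myoregulin, had 0 counts in every library. None of the 3 could be tested.

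SLC8A1 (ENSG00000183023, chromosome 2, 40097270 to 40611053 on the minus strand) encodes the exchanger that carries calcium out across the surface membrane. It was at 964, 1167, 821, 992 and 906 CPM in control libraries and at 116, 364, 94.2, 59.1 and 89.5 CPM in knockdown libraries. The groups did not overlap, and knockdown replicate 2 was more than 3 times as high as any other knockdown library. SLC8A1 fell 6.70-fold (log2 fold change -2.75 ± 0.43, SE, adjusted p = 7.4e-05). Without knockdown replicate 2 the log2 fold change was -3.44. Exons of SLC8A1 share 2040 bases with SLC8A1-AS1 on the other strand, which had a mean of 0.208 CPM.

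The modulators of the cycle also split. CAMK2D (ENSG00000145349, chromosome 4, 113418054 to 113761927 on the minus strand) encodes the delta chain of the calcium and calmodulin-dependent kinase that phosphorylates RYR2 and phospholamban. Its level was 367, 381, 315, 346 and 318 CPM in control libraries and 136, 238, 139, 135 and 139.5 CPM in knockdown libraries. Knockdown replicates 1, 3, 4 and 5 were nearly equal, and replicate 2 lay between them and the controls. CAMK2D fell 2.19-fold (log2 fold change -1.13 ± 0.16, SE, adjusted p = 3.5e-05).

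S100A1 (ENSG00000160678, chromosome 1, 153627926 to 153632039 on the plus strand) encodes a small calcium-sensing protein that binds RYR2 and SERCA2. It was scarce, at 0.789, 0.928, 1.19, 0.861 and 0.837 CPM in control libraries and 3.58, 3.23, 3.12, 3.27 and 3.05 CPM in knockdown libraries. All knockdown libraries lay above all controls, and the knockdown values had a coefficient of variation of 6.27%. S100A1 rose 3.53-fold (log2 fold change 1.82 ± 0.15, SE, adjusted p = 3.9e-07). The control values rest on 31 to 40 counts per library and the knockdown values on 97 to 166. Exons of S100A1 share 235 bases with exons of S100A13 on the other strand, and the strand setting of the counting is not given, so its counts are uncertain.

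Levels were compared between genes per kilobase of annotated exons. In control libraries PLN came first, at 522 ± 61.3 CPM per kb (SD, n = 5), followed by ATP2A2 at 172 ± 9.26, HRC at 77.7 ± 11.1 and RYR2 at 59.0 ± 2.43. SLC8A1, at 43.5 ± 5.74 CPM per kb, and JPH2, at 33.8 ± 7.48, overlapped in their ranges over the libraries. CAMK2D followed at 22.1 ± 1.86 CPM per kb, TRDN at 13.4 ± 1.08, CASQ2 at 3.68 ± 1.36 and S100A1 at 0.304 ± 0.0526. All other neighbours in this order were separated in every library.

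In knockdown libraries PLN stood at 299 ± 116 CPM per kb (SD, n = 5) and HRC, at 143 ± 3.68, lay above ATP2A2, at 109 ± 15.2. CAMK2D, RYR2, JPH2 and SLC8A1, at 10.1, 7.60, 7.03 and 6.49 CPM per kb, overlapped with each other over the 5 libraries. TRDN was at 3.21 CPM per kb, with a range of 2.34 to 4.97 that overlapped those of RYR2, JPH2 and SLC8A1 but not that of CAMK2D. CASQ2, at 1.43, overlapped with S100A1, at 1.07. The annotated exons of S100A1 cover 3030 bases and its canonical transcript only 559, so its level per kilobase and this overlap depend on the length used. The exchange of HRC and ATP2A2 depends on the length used, since per kilobase of the longest transcript the knockdown levels were 162 for HRC and 179.8 for ATP2A2. That length also raised CAMK2D from 22.1 to 46.6 and TRDN from 13.4 to 38.3 CPM per kb in control libraries, above JPH2 at 37.9.

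The calcium cycling genes range widely in span, which is the annotated extent of a gene on the chromosome, introns included. In these libraries the change of a coding gene varied with its span. Among the 10 genes the rank correlation of the log2 fold change with span was -0.891, and over the 14777 tested coding genes it was -0.599. Both are descriptions, since genes are not independent replicates, and the part of span in the changes was not tested. S100A1 and HRC, which span 4.11 and 4.20 kb, both rose, as did 66.5% of the 2796 coding genes of up to 10 kb, whose median log2 fold change was 0.77.

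CAMK2D (344 kb), TRDN (421 kb), SLC8A1 (514 kb) and RYR2 (792 kb) all fell, as did 93.6% of the 637 coding genes spanning 300 to 1000 kb. The median of that class was -2.06, which is the value of TRDN, while RYR2 and SLC8A1 lay below it and CAMK2D above it. RYR2 lay below the 10th percentile of the class, -2.86. ATP2A2 (70.3 kb), CASQ2 (68.9 kb) and JPH2 (80.6 kb) belong to the 4783 coding genes of 30 to 100 kb, of which 57.0% fell and whose median was -0.48. ATP2A2 lay near that median, and JPH2 lay below the 10th percentile of -1.72. PLN (13.4 kb) fell although 48.9% of the 4068 coding genes of 10 to 30 kb rose and 29.1% fell, with a median of 0.27.

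**Figure D2:**
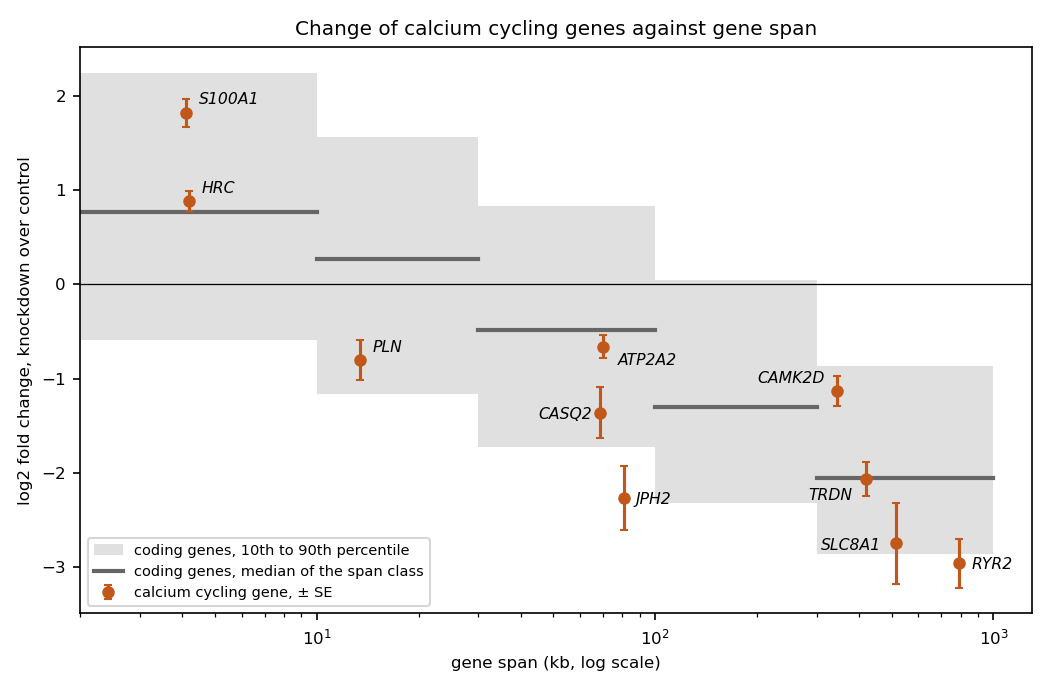
Log2 fold change of knockdown over control (vertical axis) against gene span in kb (horizontal axis, log scale) for the 10 calcium cycling genes, with SE as bars. Grey steps give the median and the 10th to 90th percentile of tested coding genes in 5 span classes. S100A1 and HRC, near 4 kb, lie above 0, RYR2 and SLC8A1 lie lowest, and JPH2 and RYR2 fall under the grey area of their class.

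Knockdown libraries differed from each other in how far these genes fell, and less in how far they rose. On the log2 scale against the mean of the controls, RYR2 lay at -2.14 in knockdown replicate 2 and at -3.84 in replicate 4. SLC8A1 lay at -1.42 and -4.04 in these libraries and JPH2 at -1.17 and -3.14. In 7 of the 10 genes, all of them falling, replicate 2 was the knockdown library nearest to the control mean and replicate 4 the farthest. CASQ2 did not follow that order, as replicates 2 and 4 were both at -0.98 and replicate 1 at -1.75. HRC lay between 0.85 and 0.93 and S100A1 between 1.73 and 1.96 in all 5 knockdown libraries. Genes of the mitochondrial genome held 11.5%, 10.9%, 16.2%, 17.5% and 16.0% of counts in knockdown replicates 1 to 5, against 10.03% to 12.2% in control libraries, and its part in these values was not tested.

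**Figure D3:**
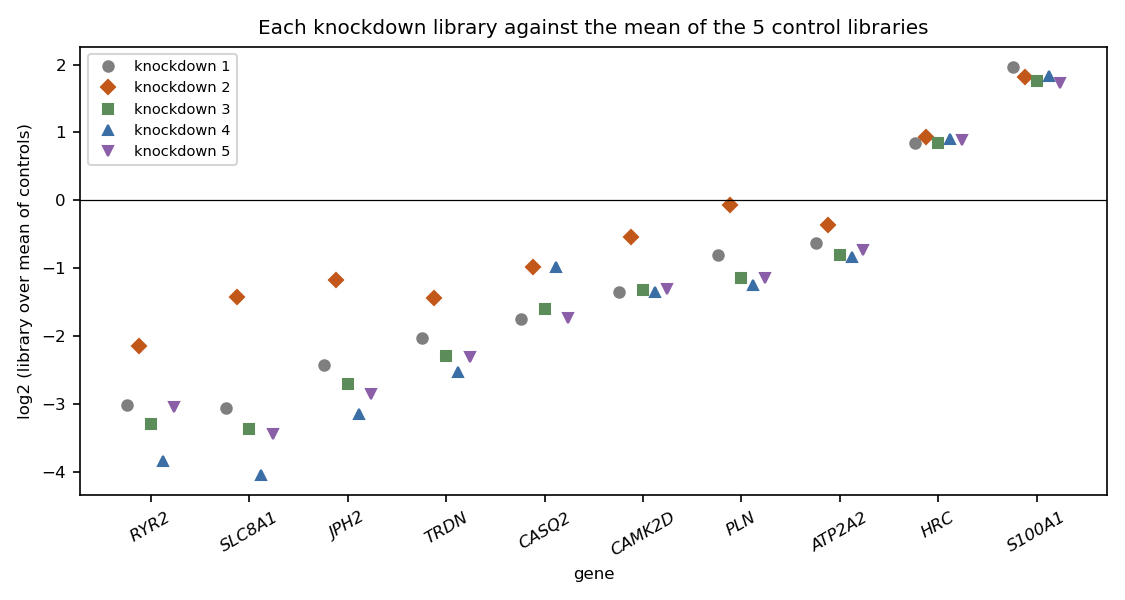
Log2 ratio of each of the 5 knockdown libraries to the mean of the 5 control libraries (vertical axis) for each calcium cycling gene (horizontal axis, ordered by fold change), with 1 symbol per library. Replicate 2 (orange diamonds) lies highest among the falling genes except beside replicate 4 in CASQ2, while the 5 symbols of HRC lie within 0.85 to 0.93.

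Ratios of counts of 2 genes in the same library do not depend on how libraries are scaled, and 6 ratios were tested with exact permutation tests over all labelings of the libraries. The smallest two-sided p such a test can give is 0.00794. The pump to inhibitor ratio, ATP2A2 to PLN, was 1.56, 1.38, 1.59, 1.42 and 1.64 in control libraries and 1.70, 1.23, 1.91, 2.00 and 2.00 in knockdown libraries. The groups overlapped through knockdown replicate 2. The ratio did not pass (difference of mean log2 ratios 0.20, exact permutation test, two-sided p = 0.198, adjusted p = 0.198 over 6 ratios). Without knockdown replicate 2 the difference was 0.32 and the adjusted p of the exact test was 0.019.

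The 3 tested ratios to RYR2 were those of TRDN, CASQ2 and JPH2. TRDN to RYR2 was 0.158 to 0.180 in control and 0.277 to 0.424 in knockdown libraries, with no overlap. The difference of mean log2 ratios was 0.95 (exact permutation test, two-sided p = 0.00794, adjusted p = 0.0119). CASQ2 to RYR2 was 0.00495 to 0.0140 in control and 0.0215 to 0.0700 in knockdown libraries, with a difference of 1.75 and the same p-values. JPH2 to RYR2 was 0.258 to 0.444 in control and 0.395 to 0.675 in knockdown libraries, which overlapped. Its difference was 0.64 (exact permutation test, two-sided p = 0.0238, adjusted p = 0.0286), and leaving out any of 6 single libraries raised the adjusted p to 0.057.

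Of the luminal pair, HRC to CASQ2 had counts in a ratio of 18.4, 16.3, 32.6, 20.2 and 23.6 in control libraries and of 123, 77.2, 111, 75.1 and 124 in knockdown libraries. The groups did not overlap, and the ratio was 4.62-fold higher in the knockdown (exact permutation test, two-sided p = 0.00794, adjusted p = 0.0119). HRC rose and CASQ2 fell, each without overlap. The separation of this ratio and its p-value therefore follow from the single genes and add no further evidence. SLC8A1 to ATP2A2, the exchanger against the pump, went the other way. That ratio was 0.409, 0.453, 0.353, 0.440 and 0.397 in control libraries and 0.0762, 0.198, 0.0695, 0.0447 and 0.0633 in knockdown libraries. It was 5.22-fold lower without overlap, with the same p-values. The ranges of SLC8A1 and ATP2A2 in the 2 groups already fix this separation, so this p-value adds no further evidence either.

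**Figure D4:**
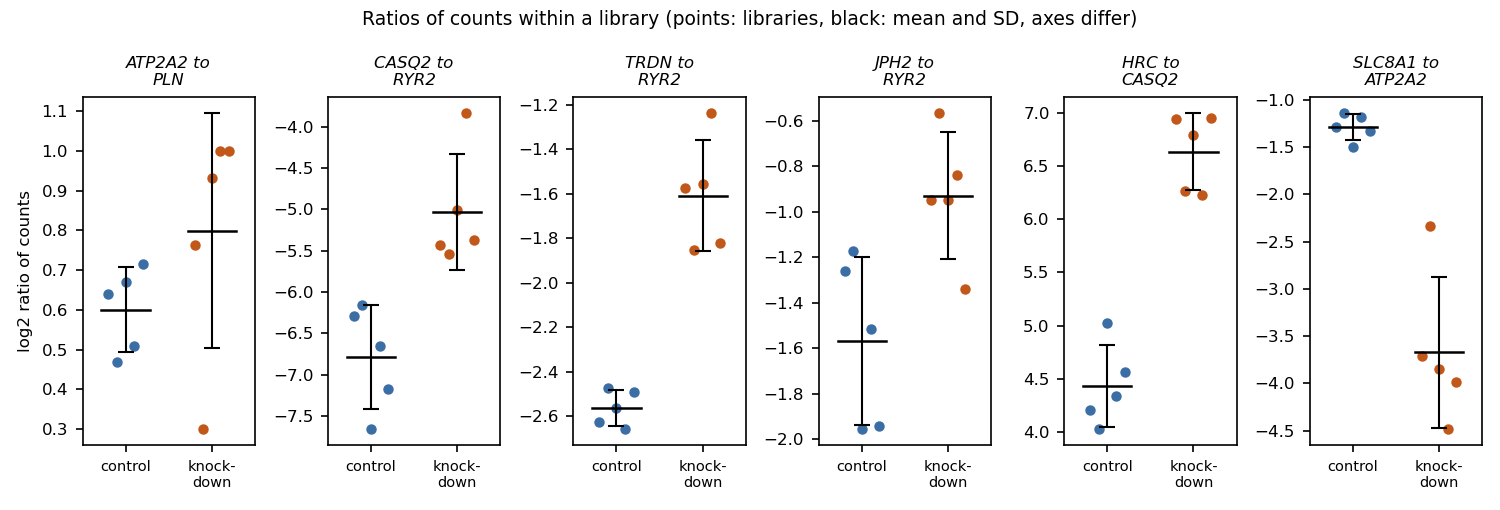
Log2 ratio of the counts of 2 calcium cycling genes in a library (vertical axes, each with its own scale) in control (blue) and knockdown (orange) libraries, with the mean and SD of 5 libraries in black. CASQ2 to RYR2, TRDN to RYR2, HRC to CASQ2 and SLC8A1 to ATP2A2 are separated between the groups, whereas ATP2A2 to PLN and JPH2 to RYR2 overlap.

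For all families but the calsequestrins, the cardiac gene held the largest share of the level in both groups. RYR2 made up 99.3% ± 0.0741 (SD, n = 5) of the ryanodine receptor level per kilobase in control libraries and 98.5% ± 0.277 after knockdown. RYR3, the broadly expressed receptor, went from 5.80 ± 0.924 down to 0.624 ± 0.313 CPM (SD, n = 5), or 9.00-fold lower. RYR1, the skeletal muscle receptor, had 2.02 CPM in control libraries and 1.31 CPM after knockdown, and its call (adjusted p = 0.036) was lost with upper-quartile scaling and without any of 5 single libraries. ATP2A2 held 98.4% of the level of the SERCA pumps per kilobase in control and 95.1% in knockdown libraries. ATP2A1, the pump of fast skeletal muscle, rose 3.85-fold, with 3.45 ± 0.518 CPM in control libraries against 13.3 ± 1.87 CPM (SD, n = 5). ATP2A3 rose 1.32-fold. ATP2A1 shares 982 exon bases with ATP2A1-AS1 on the other strand, which makes its counts uncertain.

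SLC8A1 held 99.6% of the sodium-calcium exchanger level per kilobase in control and 95.5% in knockdown libraries. SLC8A2 rose 1.57-fold to 1.06 CPM, and SLC8A3 had too few counts to be tested. Calsequestrin was the exception, as CASQ1, the skeletal muscle form, held 65.6% ± 4.95 of the summed level per kilobase in control libraries and 78.6% ± 4.56 after knockdown (SD, n = 5). CASQ1 had 14.5 CPM in control libraries and 11.3 CPM after knockdown (adjusted p = 0.046), a call that was lost in 12 of 20 other settings.

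Among junctophilins, JPH1 and JPH3 fell 3.57-fold and 3.71-fold, and JPH2 held 63.1% of the level per kilobase in control and 53.9% in knockdown libraries. JPH4 rose 1.71-fold to 1.10 CPM. The other calcium and calmodulin-dependent kinase II genes fell together with CAMK2D, by 1.56-fold for CAMK2A, 4.26-fold for CAMK2B and 2.00-fold for CAMK2G. CAMK2D kept 66.6% ± 2.53 of their summed level per kilobase in control libraries and 63.0% ± 3.58 after knockdown (SD, n = 5). The counts of CAMK2B, JPH1, JPH3 and JPH4 are uncertain because each shares exon bases with another expressed coding gene.

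Other calcium handling genes were listed by role. Of 81 listed genes 79 were in the table and 73 were tested. In the knockdown 22 of these rose and 39 fell, with a median log2 fold change of -0.36, where all tested genes gave 40.1% higher and 39.6% lower. Among 22 genes of the release unit 6 rose and 11 fell, with a median of -0.22. DHRS7C, a reticulum protein of muscle, rose 4.77-fold to 2.57 CPM, and FKBP1B, the FK506-binding protein that stabilises the closed state of RYR2, rose 2.87-fold from 3.49 ± 0.659 to 10.04 ± 2.73 CPM (SD, n = 5). BIN1, which shapes the membrane tubules opposite the reticulum, fell 3.22-fold from 53.4 ± 3.37 to 16.6 ± 2.99 CPM. RYR3, described above, was the other of the 2 falling genes with the smallest p in this list.

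Of 10 tested genes of calcium extrusion and of the sodium pump, 4 rose and 5 fell, with a median of -0.55. All tested genes gave 40.1% higher and 39.6% lower. ATP2B4, a calcium pump of the surface membrane, fell 2.68-fold, with 615 ± 105 CPM in control libraries against 229 ± 94.2 CPM (SD, n = 5). SLC8B1, the exchanger of mitochondria, fell 2.75-fold. ATP1B1, a beta subunit gene of the sodium pump whose exons overlap those of NME7, rose 1.59-fold, from 259.5 ± 16.7 to 412 ± 75.3 CPM (SD, n = 5). Of the uptake list only ATP2A1 and ATP2A3 could be tested.

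Kinases, phosphatases and anchoring proteins that act on RYR2 and phospholamban fell in 15 and rose in 6 of 25 cases, with a median of -0.58. Over all tested genes 39.6% fell and 40.1% rose. PRKAR2A, a regulatory subunit of protein kinase A, fell 2.84-fold, with 121 ± 8.63 CPM in control libraries against 42.6 ± 9.14 CPM (SD, n = 5). CAMK2G was the other of the 2 falling genes with the smallest p. PPP1CC and PPP2CA, catalytic subunits of protein phosphatases 1 and 2A, rose 1.82-fold and 1.80-fold. PPP1CC went from 186 ± 7.63 to 338 ± 34.5 CPM and PPP2CA from 181 ± 12.5 to 326 ± 31.4 CPM (SD, n = 5). Exons of PPP2CA overlap those of other annotated coding loci on the same strand, so its counts are uncertain.

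Of 14 tested genes of IP3 receptors, store-operated entry and reticulum chaperones, 4 rose and 8 fell, with a median of -0.81. The shares over all tested genes were 40.1% higher and 39.6% lower. The IP3 receptor genes ITPR1 and ITPR2, which encode a second kind of release channel of the reticulum, fell 4.79-fold and 5.17-fold. ITPR1 went from 34.7 ± 5.34 to 7.21 ± 1.97 CPM (SD, n = 5). ORAI1, the pore of store-operated entry, rose 2.57-fold from 14.9 ± 0.442 to 38.2 ± 12.2 CPM, and CANX, the chaperone calnexin, rose 1.66-fold.

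**Figure D5:**
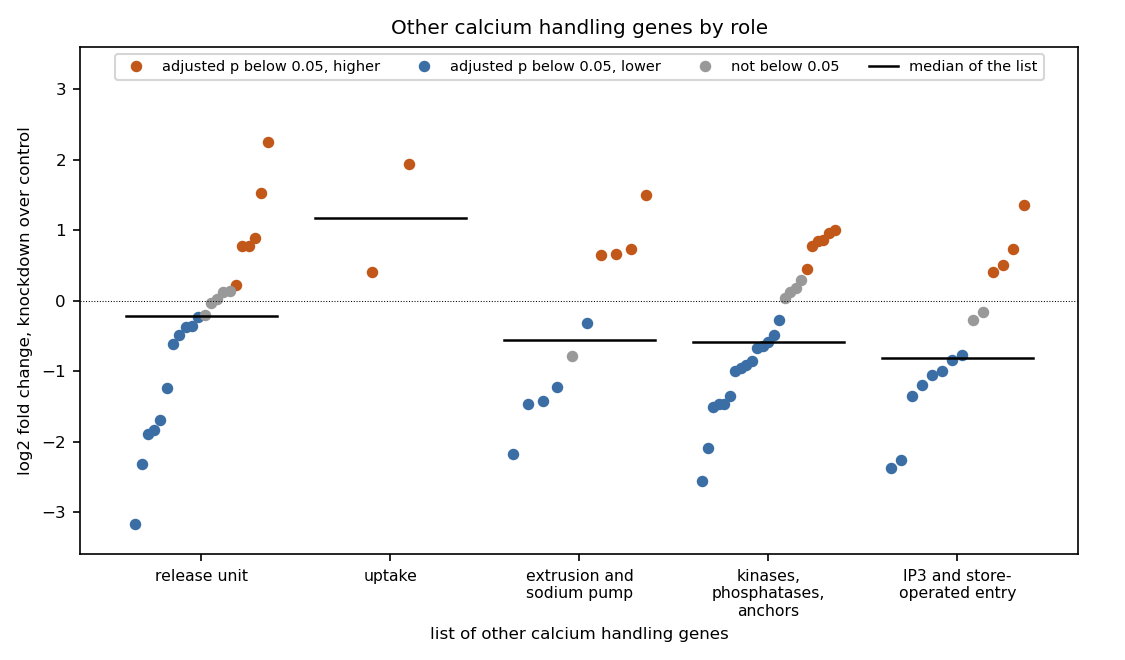
Log2 fold change of knockdown over control (vertical axis) for 73 tested genes in 5 lists of other calcium handling genes, 1 point per gene, with the median of each list as a black line. Orange points passed as higher, blue points as lower and grey points did not pass, and the medians lie below 0 in every list except uptake, which has 2 tested genes.

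Several annotated genes overlap the calcium cycling genes. The long non-coding gene ENSG00000289628, which lies inside RYR2 on the same strand and outside its exons, fell 9.68-fold, from 3.48 ± 0.4004 to 0.346 ± 0.215 CPM (SD, n = 5). In total RNA its counts may include unspliced RYR2 RNA, which was not tested. TRDN-AS1, on the strand opposite TRDN, fell 2.38-fold from 25.7 ± 4.36 to 10.8 ± 5.30 CPM, and it shares no exon base with TRDN. Its groups overlapped, with knockdown replicate 2 at 20.2 CPM above the lowest control at 19.1 CPM. ENSG00000285691, also opposite TRDN, fell 2.76-fold from 0.574 CPM, with overlap of the groups. It had only 10 to 29 counts per control library and 2 to 16 per knockdown library. ENSG00000289013, inside SLC8A1, fell by 1.60 ± 0.51 (SE) on the log2 scale from 0.367 CPM, and by 2.29 without knockdown replicate 2. As it lies on the strand of SLC8A1 and outside its exons, its counts may likewise include unspliced SLC8A1 RNA. CEP85L, whose span contains PLN on the other strand with no shared exon base, rose 1.45-fold, from 15.5 ± 1.98 to 22.4 ± 1.89 CPM (SD, n = 5), with counts made uncertain by an overlapping non-coding gene. S100A13, the neighbour that shares exon bases with S100A1, rose 2.03-fold from 61.8 ± 2.13 to 125 ± 27.9 CPM. ENSG00000287570, opposite JPH2, did not pass, at 0.41 ± 0.21 (SE) on the log2 scale (adjusted p = 0.092).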

How the data were processed

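Gene counts of 10 libraries were analysed, 5 control and 5 knockdown, grouped by their titles. The values in the deposited table are raw whole-number counts, before the CPM and gene length scaling that the design text mentions. According to that text, with versions per the submitters' processing notes, the authors trimmed reads with Trim Galore 0.65, aligned them with STAR 2.7.0 to GRCh38 using GENCODE 38 and counted them with HTSeq, for which no version or strand setting is stated. Of the 78932 identifiers 61481 matched GENCODE 44, the source of symbols and positions here, and 17451 did not, so the annotation behind the table differs from that release. The kit makes stranded libraries from RNA depleted of ribosomal RNA.

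After TMM scaling and the filterByExpr filter, edgeR 4.0.16 in R 4.3.3 gave quasi-likelihood tests with robust dispersions. P-values were adjusted by Benjamini-Hochberg over 21033 genes and called at 0.05. SE was taken as the log2 fold change over the square root of the F statistic. TMM gives changes relative to the bulk of genes, not per cell. Ratios used a pseudocount of 0.5 counts. The fit was also run on simulated counts in which few genes were changed, whereas 79.7% of tested genes were called here. That run therefore does not measure the error rate of the calls in these data. All pairs of libraries in a group differed by more than sampling noise (chi-square over degrees of freedom at least 4.45). Nothing in the labels says that replicates were separate cultures, so p-values measure only the spread between these libraries, which may be technical. Total counts of 32.9 to 45.1 in units of 1e6 make 1 count about 0.026 CPM. Of the same-numbered pairs of libraries, 2 of 5 had deviations that correlated above 0.1, so numbers were not taken as pairs.

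The genes and lists were chosen with earlier results of these data known, and no list test was made. Named were the 10 genes, tested genes overlapping them, their paralogs and small pump regulators, up to 2 rising and 2 falling genes with the smallest p per list, and the 3 coding genes closest in pattern to RYR2 and to HRC. The values of 1 gene that this rule names are not reported here. Settings tried were the whole test in DESeq2 1.42.0 or limma-voom (limma 3.58.1), size factors of DESeq2 or of the upper quartile, no filter or a filter at a mean of 1 CPM, dispersions without the robust option, removal of mitochondrial genome genes, the replicate number as a block, each library left out, and knockdown replicates 1 and 2 left out. Figures were drawn with matplotlib 3.10.9.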

Additional observations from a re-analysis of the deposited data

Results flagged for a closer look

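A single library lay far from the other 4 of its group in 8 of the 110 sets of 5 values checked, and in all 8 it was knockdown replicate 2. A set was taken when the gap to the nearest library was more than 0.71 of the range of the group, which chance gives in about 1 of 20 sets. Among the calcium cycling genes these were JPH2 at 161 CPM, where the other knockdown libraries lay between 40.9 and 67.2 CPM, PLN at 1490 CPM (others 660.5 to 899), SLC8A1 at 364 CPM (others 59.1 to 116) and CAMK2D at 238 CPM (others 135 to 139.5). In each of these 4 genes the value lay on the side of the controls. Control replicate 2 was also the highest control library in these 4 genes. It was at 460 CPM for JPH2, 1862 for PLN, 1167 for SLC8A1 and 381 for CAMK2D. Over all tested genes, deviations from the group mean correlated at 0.22 between the libraries numbered 2, the highest value of the same-numbered pairs. Whether these libraries share an effect was not tested. The others were TRDN-AS1 at 20.2 CPM (others 8.02 to 9.03), FBXL7 at 29.7 CPM (others 9.59 to 15.3) and PRKAR2A at 58.6 CPM (others 35.3 to 40.2), also toward the controls. ATP1B1, which rose, was at 543 CPM in that library (others 363 to 410.4), farther from the controls than the rest.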

How the results depend on the processing

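All 10 calcium cycling genes kept their direction and stayed below the threshold in all 200 values under other settings, with 2 higher and 8 lower each time. The log2 fold change ranged from -3.36 to -2.78 for RYR2, from -3.59 to -2.54 for SLC8A1, from -1.18 to -0.62 for PLN and from -0.80 to -0.47 for ATP2A2. Upper-quartile scaling moved all genes by a median of 0.20 and gave 9566 higher and 7277 lower genes, with 27 higher and 33 lower among the other calcium handling genes against 22 and 39. RYR2 fell further than SLC8A1 over all libraries, but less without knockdown replicate 2 (-3.27 against -3.44). With knockdown replicates 1 and 2 left out, JPH2 was at -2.89 against -2.27 and SLC8A1 at -3.59. ENSG00000289013 ranged from -3.12 (without knockdown replicates 1 and 2) to -1.32. Among the ratios, ATP2A2 to PLN passed with a difference of 0.38 without knockdown replicates 1 and 2, and ranged from 0.15 to 0.32 over single libraries left out, passing without knockdown replicate 2. JPH2 to RYR2 ranged from 0.54 to 0.74 over single libraries left out and did not pass at 0.52 without knockdown replicates 1 and 2. With the replicate block, the exact test flipped the signs of the 5 paired differences of log2 ratios and compared their mean. Such a test of 5 pairs cannot give an adjusted p under 0.05. CASQ2 to RYR2 (1.75), TRDN to RYR2 (0.95), JPH2 to RYR2 (0.64), HRC to CASQ2 (2.21) and SLC8A1 to ATP2A2 (-2.38) therefore did not pass, at the same values. In the gene fit the replicate block gave 8214 higher and 8211 lower genes against 8441 and 8332. Only 1 of 5 control libraries, replicate 2, correlated best with its own number. The length of the longest transcript gave control levels of 63.1 CPM per kb for RYR2, 38.3 for TRDN, 284 for ATP2A2 and 46.6 for CAMK2D. Of the other named genes, 754 of 775 values stayed on their side of the threshold. The exceptions were RYR1, CASQ1 and ENSG00000287570. Depth limits S100A1, CASQ2 and the untested small pump regulators.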

Other observations

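The coding genes whose log2 CPM values, centred over the 10 libraries, came closest to those of RYR2 were SETBP1, TTC28 and FBXL7, with root mean square differences of 0.0749, 0.0831 and 0.0881. SETBP1, a DNA-binding protein gene spanning 388 kb, had 28.9 ± 1.37 CPM in control libraries and 3.54 ± 1.55 CPM after knockdown (SD, n = 5), and fell 8.07-fold. TTC28, which spans 702 kb, fell 7.64-fold, and FBXL7, a ubiquitin ligase subunit gene spanning 439.6 kb, fell 8.03-fold. The genes closest to HRC were MRPL2 (root mean square difference 0.0544), NEURL1B (0.0662) and FN3K (0.0771). MRPL2, a mitochondrial ribosomal protein gene spanning 5.41 kb, rose 1.82-fold, from 34.2 ± 5.496 to 62.2 ± 3.87 CPM. NEURL1B, which spans 50.3 kb, rose 1.80-fold, and FN3K, a kinase that removes sugar from proteins, spans 15.6 kb and rose 1.69-fold. Exons of TTC28 and MRPL2 overlap those of expressed genes on the other strand, so their counts are uncertain.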
